A study of Mus musculus with 6 samples.

Results

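The expression of 10 genes that modify, fold or crosslink collagen was followed through epithelial-mesenchymal transition and its reversal in the mouse mammary epithelial cell line EpH4. The 10 genes were taken by name from a table of 17428 genes. They are the 5 lysyl oxidases (*Lox*, *Loxl1*, *Loxl2*, *Loxl3* and *Loxl4*), 2 lysyl hydroxylases (*Plod1* and *Plod2*), 2 catalytic subunits of prolyl 4-hydroxylase (*P4ha1* and *P4ha2*) and the collagen chaperone *Serpinh1*, also known as HSP47. All were found, and all 10 had enough coverage to be tested. E cells are EpH4 cells grown in normal medium with serum and insulin. M cells are EpH4 cells kept for 7 days in the same medium with transforming growth factor-β1 (TGFβ1), which turned them fibroblastoid. RE cells (reverted epithelial) are M cells returned to normal medium for another 4 days. Each state is represented by 2 biological replicates of this 1 cell line, 6 libraries in all, and the p-values measure the spread between these libraries only.

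Collagen chains are hydroxylated and folded in the endoplasmic reticulum (ER) before they are secreted. Prolyl 4-hydroxylase stabilizes the triple helix, lysyl hydroxylases modify lysines, and Serpinh1 binds the folded procollagen until it leaves the ER. Outside the cell, lysyl oxidases convert lysines and hydroxylysines of collagen and elastin to reactive aldehydes, from which crosslinks form. Plod2 acts mainly on the telopeptide ends of collagen and thereby sets the type of crosslink, whereas Plod1 acts mainly within the helix. TGFβ1 is a well-known inducer of matrix genes in fibroblasts and epithelial cells.

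The libraries held between 35782513 and 47928557 reads' worth of coverage, that is, sequenced bases summed over a gene and divided by a read length of 50 bases. Values are given as normalized coverage in ppm, that is, scaled to the library total and TMM-normalized, as mean ± SD over the 2 libraries of a state (n = 2). A log2 fold change is on the log2(ppm + 0.1) scale, which understates the change of low genes, and genes were called where the means differed by more than 1 on this scale and the limma adjusted p was below 0.01. The replicates of E cells were less alike (SD of the log2 difference across genes, 0.558) than those of M (0.318) and RE cells (0.309). Among markers of other cell types, the fibroblast list (5 of its 6 genes in the table) summed to 88.0 to 116 ppm in E, 447 to 492 in M and 767 to 907 in RE cells, nearly all of it *Pdgfrb* and *Pdgfra*, while *Dpt* and *Thy1* stayed at or below 0.0728 ppm in every library. The summed level of the endothelial list did not exceed 2.73 ppm in any library. That of the immune list reached 36.9 ppm in M cells, mostly *Csf1r*, with *Ptprc* at 0.0781 ppm or below. The epithelial list summed to 1803 to 2216 ppm in E, 1455 to 1479 in M and 988 to 1034 in RE cells, with *Krt19* at 0.162 ppm or below in every library. Of its 7 tested genes, 4 were called lower in M than in E cells (8.39% of all genes tested), with a median log2 fold change of −1.07. In RE cells 5 of the 7 were called lower than in E cells (3.17%), with a median of −1.23, and neither comparison had a gene called higher. From M to RE cells the median of the 7 was −0.02. The lowest were *Krt8* (−1.32, the only one called, where 12.9% of all genes tested were) and *Krt18* (−0.97), and the highest was *Cldn7* (0.56). The myoepithelial list summed to 306.5 to 374.7 ppm in E, 787 to 893 in M and 499 to 501.1 in RE cells, and the adipocyte list did not exceed 9.15 ppm. Whether these shifts contribute to the results below was not tested. In such bulk libraries, fewer cells expressing a gene and less RNA per cell cannot be told apart.

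Between the E and M cells *Loxl4* fell while *Loxl3*, *Loxl2* and *Lox* rose, and the lysyl hydroxylases *Plod1* and *Plod2* rose with them. In E vs. M, 5 of the 10 genes were called higher in the M cells, where 8.58% of all genes tested were, and 1 was called lower, where 8.39% were. *Lox* and *Loxl2*, 2 of the 5, had to differ between states to pass the filter on low coverage. With 500 bases required in every library, 3 of the 8 genes left (*Loxl3*, *Plod1* and *Plod2*) were called higher and *Loxl4* lower. Under this filter, 980 of all 12184 genes tested were called higher and 917 lower. After TGFβ1 removal, 4 were called lower in RE than in M cells (background 4.79%) and 1 higher (background 8.08%). Only *Loxl3* was called between RE and E cells, as higher in RE (background 6.20%), and none was called lower (background 3.17%). The libraries of the states compared did not overlap for 9 of the 10 genes between E and M, 10 between M and RE and 6 between E and RE cells, as for 70.6%, 78.1% and 66.7% of all genes tested. The median log2 fold change of the 10 genes was 1.17 between E and M, −0.80 between M and RE and 0.24 between E and RE cells, against 0.00, −0.02 and 0.01 for all 13893 genes tested. Each state enters 2 of the 3 comparisons, which therefore share libraries. With *Lox* and *Loxl2* at their lower bounds, the E vs. RE median was 0.07. Scaling by library totals in place of TMM moved the median of all genes to −0.29 in E vs. M and to 0.18 in M vs. RE, and under it no direction among the 10 genes changed and only *Serpinh1* in M vs. RE lost its call.

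**Figure D1:**
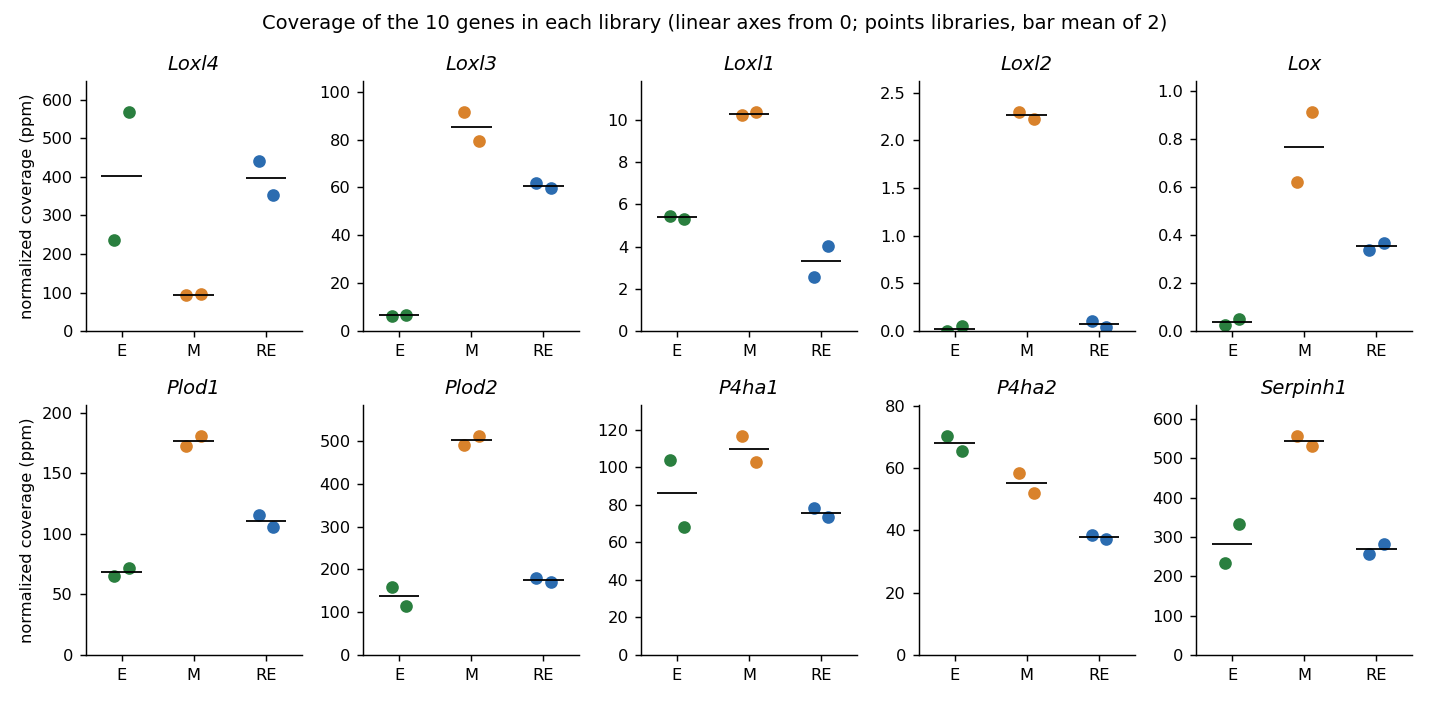
Normalized coverage (ppm, linear axes from 0, one scale per gene) of the 10 genes in the E, M and RE cells, with a point for each of the 2 libraries and a bar for their mean. *Loxl4* dips in the M cells, to 92.9 and 96.7 ppm, where both libraries of *Loxl3*, *Loxl1*, *Loxl2*, *Lox*, *Plod1*, *Plod2* and *Serpinh1* lie above all others.

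**Figure D2:**
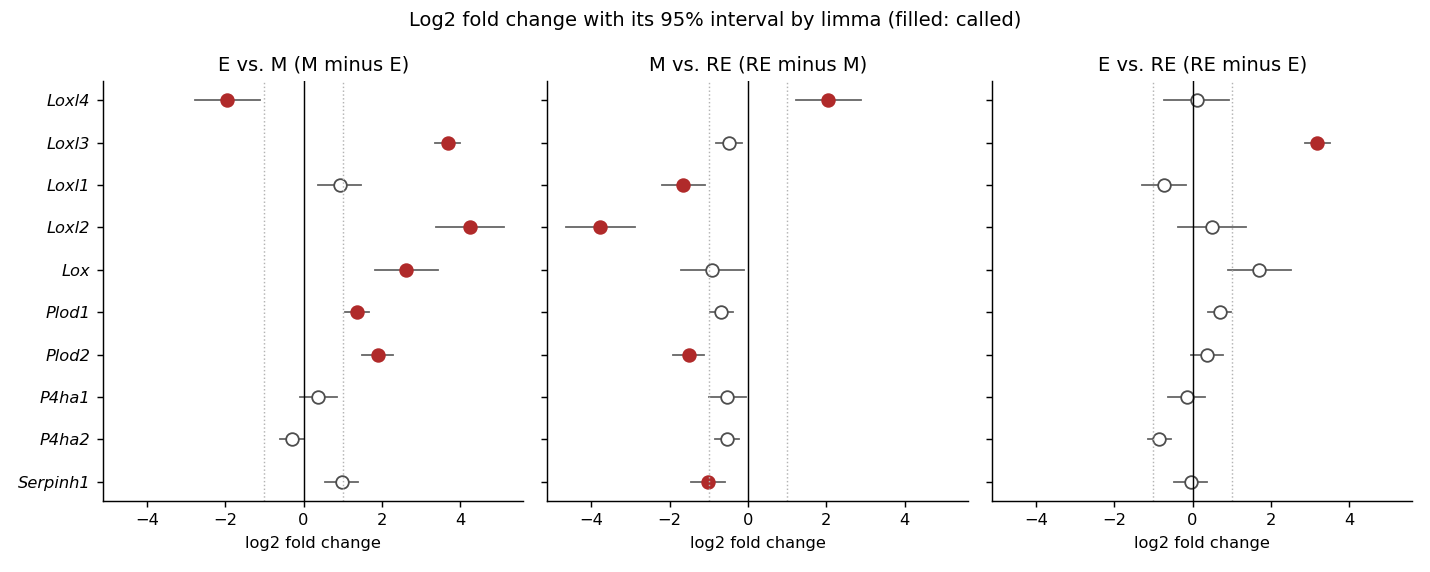
Log2 fold change (x axis) of each of the 10 genes in the 3 comparisons, with the 95% interval from limma as a line. Filled points were called, and *Loxl3* is the only filled point in E vs. RE, at 3.19.

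For the 3 of these genes that were called in a comparison and have an entry in RefSeq's promoter table (build GRCm38.p6), the 250 bases before the annotated start are shown, since the M cells had the highest values of *Plod1* and *Serpinh1* and the lowest of *Loxl4*. Entries were matched for 5 of the 10 genes, the other 2 being *P4ha1* and *P4ha2*. *Lox*, *Loxl1*, *Loxl2*, *Loxl3* and *Plod2* had no entry. Sequences run 5′ to 3′ on the strand of the gene, and capitals mark matches on either strand to CAGAC (a SMAD half-site), ACGTG or GCGTG (the core of hypoxia response elements) and GGGCGG (a GC box).
*Loxl4*, minus strand of chr19:42612807-42613056: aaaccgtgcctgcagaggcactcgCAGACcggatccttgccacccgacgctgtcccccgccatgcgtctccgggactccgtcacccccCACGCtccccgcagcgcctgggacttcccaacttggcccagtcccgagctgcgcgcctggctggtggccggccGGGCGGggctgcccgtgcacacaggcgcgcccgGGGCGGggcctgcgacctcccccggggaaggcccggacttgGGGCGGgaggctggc
*Plod1*, minus strand of chr4:147936777-147937026: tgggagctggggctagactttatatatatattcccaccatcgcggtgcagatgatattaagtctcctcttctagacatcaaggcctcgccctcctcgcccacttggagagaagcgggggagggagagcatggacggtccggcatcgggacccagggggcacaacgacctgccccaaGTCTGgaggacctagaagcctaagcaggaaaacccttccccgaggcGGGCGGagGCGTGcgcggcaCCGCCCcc
*Serpinh1*, minus strand of chr7:99353240-99353489: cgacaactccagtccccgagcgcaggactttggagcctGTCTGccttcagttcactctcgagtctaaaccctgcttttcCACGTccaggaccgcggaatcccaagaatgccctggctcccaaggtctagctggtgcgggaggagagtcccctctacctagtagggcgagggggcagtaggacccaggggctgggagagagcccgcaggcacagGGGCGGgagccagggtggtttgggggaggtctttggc
None of these matches overlapped another. CAGAC was found in 1 place in each of the 3 windows, and 42.1% of all 27025 gene promoters of the same length hold it. GGGCGG occurred at 3 places before *Loxl4*, 2 before *Plod1* and 1 before *Serpinh1* (32.9% of all promoters hold it). GCGTG was found once before *Loxl4* and once before *Plod1* (28.2%), and ACGTG once before *Serpinh1* (16.6%). The letters of an AP-1 site (TGANTCA, 6.87%), a heat shock element (GAANNTTC, 6.78%) and a CCAAT box (CCAAT, 34.5%) are in none of the 5 matched windows. The *Loxl4* window is also the richest in G and C among these, at 76.0% with 27 CpG, against 61.6% with 16 for *Plod1* and 63.6% with 11 for *Serpinh1*, the medians of all promoters being 52.0% and 6.

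*Loxl4*, a lysyl oxidase with scavenger receptor domains, was the member of its family with the highest coverage. It was at 235 and 567 ppm in the E libraries, 92.9 and 96.7 in the M libraries and 440.4 and 352 in the RE libraries. Both M libraries thus lay below all others, while the E libraries, which differed 2.41-fold from each other, enclosed the RE libraries. From 401 ± 235 the mean dropped to 94.8 ± 2.67 with TGFβ1 (log2 fold change −1.95 ± 0.36 SE, limma adjusted p = 0.00445) and was 396 ± 62.4 once it was removed (against M, 2.05 ± 0.36 SE, limma adjusted p = 0.00448). RE and E cells were not told apart (0.11, 95% interval −0.73 to 0.94, limma adjusted p = 0.839), which leaves differences of nearly 2-fold possible. The fall in E vs. M was −2.58 without the first and −1.33 without the second E library, and its call was lost without any 1 of the M or RE libraries (adjusted p by limma up to 0.0372) and in a fit of the E and M libraries alone (0.0125). The rise in M vs. RE likewise lost its call without any 1 of the M or RE libraries, but kept it in a fit of the M and RE libraries alone (limma adjusted p = 7.83e-10).

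*Loxl3*, a related lysyl oxidase, rose with TGFβ1 and stayed high after its removal. Its coverage was 6.40 and 6.73 ppm in the E libraries, 91.4 and 79.3 in the M libraries and 61.8 and 59.7 in the RE libraries. The 3 states did not overlap, with E lowest and M highest. The mean was 13.0 times higher in M cells than in E cells (log2 fold change 3.68 ± 0.14 SE, limma adjusted p = 9.2e-06) and 9.26 times higher in the RE than in the E cells (3.19 ± 0.14 SE, limma adjusted p = 8.62e-05). The difference between M and RE cells (−0.49 ± 0.14 SE, limma adjusted p = 0.0335) was not called. On the log2 scale, 0.87 of the rise thus remained 4 days after removal of TGFβ1, the E libraries entering both terms. The calls in E vs. M and E vs. RE held under all alternatives and without any 1 library. In a newer annotation than the one of the table, 535 of the 4098 exonic bases of *Loxl3* are shared with *Htra2* on the other strand, and the strand setting of the counting is not given in the sources used here. *Htra2*, a mitochondrial protease, was at 98.4 and 92.0 ppm in E, 141 and 122 in M and 76.1 and 94.2 in RE libraries and was not called in any comparison (log2 fold change 0.46, limma adjusted p = 0.045 in E vs. M).

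*Loxl2* and *Lox* were nearly absent from E cells. *Loxl2*, which in other settings is a hypoxia target linked to invasive epithelial cells, had 0 and 2.0 reads' worth of coverage in the E libraries, 95.7 and 91.8 in the M libraries and 4.9 and 2.0 in the RE libraries. The M libraries, at 2.29 and 2.23 ppm, stood far above the 4 others, none of which had more than 4.9 reads' worth. Since both E libraries were at or under 3 reads' worth, the mean in the M cells was at least 30.6-fold higher (limma adjusted p = 0.000156). The M mean was 29.9 times that in the RE cells (limma adjusted p = 0.000316). Lower bounds here and below set the mean of the higher state against 3 reads' worth and leave out the spread between its libraries. A difference between E and RE cells was not detectable at this depth. *Lox*, the founding member of the family, was lower still, with 1.1 and 2.0 reads' worth in the E libraries, 25.9 and 37.5 in the M libraries and 16.0 and 16.1 in the RE libraries. All M libraries lay above all RE libraries, and these above all E libraries. The *Lox* mean was at least 10.4-fold higher in M cells than in E cells (limma adjusted p = 0.00103), although not called without the second M library (adjusted p = 0.0179) or with a pseudocount of 1. It was at least 4.78-fold higher in the RE than in the E cells, just outside the threshold (limma adjusted p = 0.0103). Both genes passed the filter on low coverage only through the states in which they are high, *Loxl2* through the M libraries and *Lox* through the M and RE libraries, so that they had to differ between states to be tested. Without either M library *Loxl2* no longer passed the filter. Antisense transcripts overlap exons of *Lox* (30 bases) and *Loxl2* (301 bases) in the newer annotation.

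*Loxl1*, the lysyl oxidase best known for elastin, had its lowest values in the RE cells. It was at 5.45 and 5.31 ppm in the E libraries, 10.2 and 10.3 in the M libraries and 2.55 and 4.045 in the RE libraries. The M libraries were above the E libraries by less than both thresholds ask (log2 fold change 0.92 ± 0.24 SE, limma adjusted p = 0.0181). It fell after TGFβ1 removal (−1.65 ± 0.24 SE, limma adjusted p = 0.00195), a call that was lost without the first RE library or without either M library. The call held in a fit of the M and RE libraries alone (limma adjusted p = 8.54e-06). Both RE libraries were below both E libraries, but that difference was not called (−0.73, limma adjusted p = 0.0549).

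Levels can be compared between genes per kilobase of exon (ppm divided by the merged exon length in kilobases). On this scale *Loxl4* made up 95.1% and 97.9% of the summed lysyl oxidase coverage in the E libraries, 48.9% and 52.8% in the M libraries and 88.1% and 85.6% in the RE libraries. *Loxl3* made up 2.36% and 1.06% in the E, 43.9% and 39.5% in the M and 11.3% and 13.2% in the RE libraries. In the M cells the family was therefore shared between *Loxl4* and *Loxl3*, with *Loxl1* at 6.09% and 6.41%, *Loxl2* at 0.835% and 0.842% and *Lox* at 0.255% and 0.389%. The sum of the family per kilobase was 66.1 and 155 ppm in the E libraries, 50.8 and 48.9 in the M libraries and 134 and 110.0 in the RE libraries. It was thus lowest in the M cells, *Loxl4* being by far the largest term in E cells. *Loxl3*, *Loxl2* and *Lox* were called higher in the M cells, but *Loxl2* and *Lox* had to differ between states to be tested. In the RE cells the mean *Loxl4* level was back to that of the E cells, but *Loxl3*, at 14.8 ppm per kilobase, stood above its level in E cells (1.60).

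**Figure D3:**
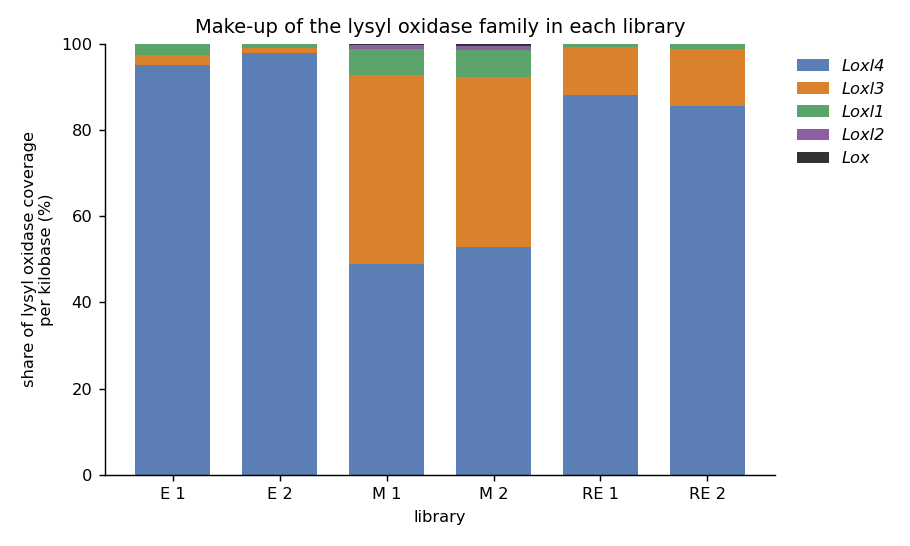
Share (%, y axis from 0 to 100) of each lysyl oxidase in the family's coverage per kilobase in each of the 6 libraries (x axis). *Loxl4* makes up at least 95.1% in the E libraries, 48.9% to 52.8% in the M libraries, where *Loxl3* takes 39.5% to 43.9%, and 85.6% to 88.1% in the RE libraries.

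Both lysyl hydroxylases rose with TGFβ1, and *Plod2* fell again after its removal. *Plod2*, the telopeptide lysyl hydroxylase, was at 160 and 115 ppm in the E libraries, 491.5 and 512 in the M libraries and 179.5 and 170.5 in the RE libraries. The M libraries stood apart, while both RE libraries were only slightly above the E libraries. Its mean rose 3.66-fold in the M cells (log2 fold change 1.89 ± 0.17 SE, limma adjusted p = 0.000187) and was lower again in RE cells than in M cells (−1.52 ± 0.17 SE, limma adjusted p = 0.000634). Against E, the RE cells were at 0.37 (95% interval −0.03 to 0.77, limma adjusted p = 0.142), which was not called. This difference rested on the E libraries, at 0.61 without the first (limma adjusted p = 0.000199) and 0.13 without the second (0.276). The rise in the M cells held under all alternatives, whereas the call in M vs. RE was lost without any 1 of the M or RE libraries. That call held in a fit of the M and RE libraries alone (limma adjusted p = 1.82e-09). In the newer annotation a transcript on the other strand shares 346 exonic bases with *Plod2*.

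*Plod1*, the helical lysyl hydroxylase, kept an intermediate level. It was at 64.95 and 72.1 ppm in the E libraries, 172 and 181 in the M libraries and 115 and 106 in the RE libraries. The 3 states were ordered without overlap, with RE between E and M. The rise in the M cells was called (log2 fold change 1.36 ± 0.13 SE, limma adjusted p = 0.000216) under all alternatives and without any 1 library. The differences of RE cells from M (−0.68 ± 0.13 SE, limma adjusted p = 0.00674) and from E (0.69 ± 0.13 SE, limma adjusted p = 0.00764) were about equal in size, under the fold threshold of 2, and called at a fold of 1.5. Without the first E library, RE cells were 0.61 above E cells in both *Plod1* and *Plod2*, so a difference between the 2 genes is not shown. Per kilobase, *Plod2* exceeded *Plod1* in all libraries, by 2.39- and 1.55-fold in the E, 2.78- and 2.76-fold in the M and 1.51- and 1.57-fold in the RE libraries, so the E libraries spanned most of the range.

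The prolyl 4-hydroxylase subunits changed less. *P4ha1*, the more widely expressed catalytic subunit, was at 104 and 68.3 ppm in the E libraries, 117 and 102.5 in the M libraries and 78.0 and 73.4 in the RE libraries. The E libraries overlapped with the M and enclosed the RE libraries, and no comparison was called (log2 fold change 0.38, 95% interval −0.10 to 0.85, limma adjusted p = 0.172 in E vs. M). *P4ha2*, which forms the second form of the enzyme, was at 70.4 and 65.6 ppm in the E, 58.55 and 51.95 in the M and 38.4 and 37.1 in the RE libraries. Alone among the 10 genes it was ordered E, M, RE from high to low without overlap. Its difference between RE and E cells (−0.85 ± 0.13 SE, limma adjusted p = 0.00397) was under the fold threshold of 2 and was called at a fold of 1.5. The ratio of *P4ha1* to *P4ha2* per kilobase was 0.839 and 0.592 in the E libraries, 1.13 and 1.12 in the M libraries and 1.15 and 1.12 in the RE libraries. The subunit with more coverage per kilobase was thus *P4ha2* in both E libraries and *P4ha1* in the 4 others. In ppm *P4ha1* was above *P4ha2* in every library, so the order in the E cells rests on the exon lengths.

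*Serpinh1*, the procollagen chaperone of the ER and a heat shock protein, had its highest values in the M cells. It was at 233 and 332.5 ppm in the E libraries, 557 and 532 in the M libraries and 256 and 281 in the RE libraries. The M libraries were above all others, and the RE libraries lay within the range of the E libraries. The M cells were 1.93 times above the E cells (log2 fold change 0.97 ± 0.18 SE, limma adjusted p = 0.00514), just under the fold threshold, and the difference was 1.20, and called, without the second E library. The fall from M to RE was just past it (−1.02 ± 0.18 SE, limma adjusted p = 0.00528), and was not called without the second E library (−0.99) or without any 1 of the M or RE libraries. In a fit of the M and RE libraries alone this fall was called (limma adjusted p = 2.01e-07). E and RE cells were not told apart (−0.05, 95% interval −0.48 to 0.38, limma adjusted p = 0.851). Per kilobase, *Serpinh1* (116 ± 28.9 ppm) and *Loxl4* (107 ± 62.7) were highest of the 10 genes in the E cells and did not differ beyond their spread, whereas in the M cells *Serpinh1* (223 ± 7.17) and *Plod2* (135 ± 3.95) led and *Loxl4* (25.3 ± 0.713) had come down to the levels of *P4ha1* (26.6 ± 2.43) and *P4ha2* (23.6 ± 2.00).

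The other genes of collagen modification were read from lists drawn up by function. Among the other genes of prolyl hydroxylation, 6 of 8 were tested and 2 were called higher in the M cells, none lower, against 17.0% of all genes called either way. They were *P4hb*, the disulfide isomerase that is the other subunit of prolyl 4-hydroxylase (456 and 336 ppm in E, 929 and 910.1 in M and 561 and 574 in RE libraries, log2 fold change 1.23 in E vs. M), and *Lepre1* (P3h1), a prolyl 3-hydroxylase (11.8 and 10.55, 35.1 and 30.25, and 35.3 and 32.4 ppm). *Lepre1* was also called higher in the RE than in the E cells (1.59, limma adjusted p = 0.000693). *Leprel1* (P3h2), a prolyl 3-hydroxylase of basement membrane collagen, was highest in the RE cells (185 and 176 ppm against 27.5 and 47.6 in the E and 20.2 and 22.2 in the M libraries), with a log2 fold change of 2.32 against E (limma adjusted p = 0.000898).

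Of the genes of lysyl modification and procollagen folding, 5 of 7 were tested and 2 were called higher in the M cells and none lower (8.58% and 8.39% of all genes tested). *Plod3*, the lysyl hydroxylase that also adds glucose, rose and fell, from 127 and 128.5 ppm in the E to 277 and 279 in the M and back to 123 and 131.5 in the RE libraries (log2 fold change 1.12 in E vs. M, adjusted p = 0.000389, and −1.13 in M vs. RE, limma adjusted p = 0.000462). *Fkbp14*, an ER prolyl isomerase, was at 1.67 and 1.55 ppm in the E, 6.53 and 5.09 in the M and 6.68 and 5.63 in the RE libraries and was also called in E vs. RE (1.87, limma adjusted p = 0.0013). The median of these 5 genes was 1.12 in E vs. M and 0.22 in E vs. RE.

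For the steps after folding, 9 of 12 genes were tested, of which 4 were called higher and none lower in the M cells (8.58% and 8.39% of all genes). *Bmp1*, the protease that removes the C-propeptide of procollagen and activates lysyl oxidase, was at 104 and 128 ppm in the E, 758.5 and 795 in the M and 118 and 123.5 in the RE libraries (log2 fold change 2.75 in E vs. M, adjusted p = 1.84e-05, and −2.68 in M vs. RE, limma adjusted p = 2.22e-05). Its relative *Tll1* was at least 179-fold higher in M cells than in E cells, where it was at the floor. *Tll1* passed the filter on low coverage only through the M libraries, so it had to differ between states to be tested. *Pcolce2*, an enhancer of this cleavage, rose and fell with *Bmp1* (1.39 and −1.31), whereas the related *Pcolce* had its highest values in the RE cells, at 224 ppm in both RE libraries against 71.8 and 60.35 in the E libraries (1.77, limma adjusted p = 0.000385) and 69.7 and 64.05 in the M libraries. *Adamts2*, the N-propeptidase of fibrillar collagen, was likewise higher in the RE cells than in the E (1.58, limma adjusted p = 0.00125) and M cells (1.45, adjusted p = 0.000974).

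Most of the substrates changed as well. Of 16 collagen and elastin genes, 13 were tested, and 9 were called higher and 3 lower in the M cells (8.58% and 8.39% of all genes), with a median log2 fold change of 2.67. *Col1a1*, the main chain of type I collagen, was at 31.6 and 32.8 ppm in the E, 555 and 438.5 in the M and 271 and 202 in the RE libraries. *Col5a3*, a minor fibrillar chain, had the largest change of the list (log2 fold change 8.19 in E vs. M and −6.71 in M vs. RE). In the RE cells 7 of the 13 were called higher than in the E cells (background 9.37% either way) and none lower, with a median of 1.42, among them *Col1a1* (2.86), *Col1a2* (2.10) and *Col3a1* (3.13). Of the 10 genes described above, only *Loxl3* was called higher in the RE than in the E cells. *Col4a1*, *Col4a2* and *Eln* had at most 0.263 ppm in any library and were not tested.

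**Figure D4:**
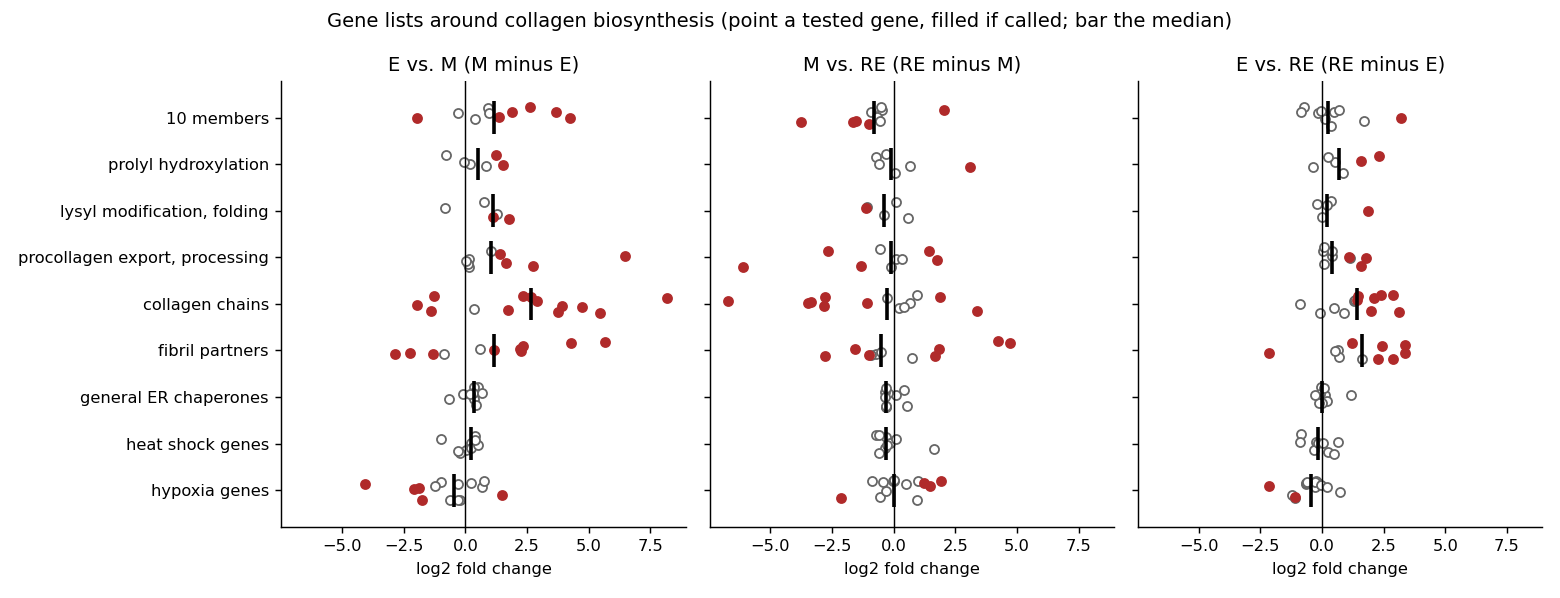
Log2 fold change (x axis) of each tested gene of 9 lists (rows) in the 3 comparisons, filled where called, with a bar at the list's median. In E vs. M the medians run from −0.48 for the hypoxia genes to 2.67 for the collagen chains, with 1.17 for the 10 genes described here. No general ER chaperone or heat shock gene was called in E vs. M, where 17.0% of all genes tested were.

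Since *Serpinh1* belongs to the heat shock genes and *Plod2*, *P4ha1*, *P4ha2* and *Loxl2* are known hypoxia targets, 3 further lists were set beside them. None of the 10 general ER chaperones was called by limma in any comparison (unadjusted, 3 had a p below 0.05 between E and M, 1 between M and RE and 1 between E and RE cells), and their median in E vs. M was 0.33. Of all genes tested, 17.0%, 12.9% and 9.37% were called in these comparisons, so lists this short can hold few calls. *Hspa5*, the main ER chaperone, was at 2290.0 and 1413 ppm in the E and 1822 and 1589 in the M libraries. None of the 9 heat shock genes tested was called by limma either (0, 3 and 3 had an unadjusted p below 0.05 in these comparisons), with a median of 0.21 in E vs. M. The E libraries differed in several genes of both lists, such as *Hsp90b1* (2802 and 1533 ppm) and *Hsph1* (839 and 444 ppm), which limits what could be called against E cells. Among 14 common hypoxia targets outside collagen biosynthesis, 1 was called higher and 4 lower in the M cells (8.58% and 8.39% of all genes), and the median was −0.48. The gene called higher was *Vegfa* (1.48). *Adm* (−4.07), *Egln3* (−2.10), *Car9* (−1.86) and *Pdk1* (−1.77) were called lower. From M to RE, 3 of these 4, all but *Egln3*, were called higher, where 8.08% of all genes tested were. The M libraries enter both comparisons, so genes picked as low in them were favoured to rise from M to RE. Of the hypoxia targets named at the start of this paragraph, *Plod2* and *Loxl2* were called higher in the M cells, and *P4ha1* (0.38) and *P4ha2* (−0.30) were not called. Among the rest of the 10 genes, *Lox*, *Loxl3* and *Plod1* were also called higher and *Loxl4* lower. The part of hypoxia or heat shock signalling in these values was not tested.

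The genes with the most similar profiles were found by the Euclidean distance between log2 values centred on each gene's mean, over the 6 libraries and among the 10088 genes whose log2 values averaged 2 or more. *Qsox1*, a secreted disulfide-forming enzyme, was closest to *Plod1* (distance 0.10), with 67.6 and 72.0 ppm in the E, 177 and 175 in the M and 111 and 106.5 in the RE libraries. *Plxnd1*, a semaphorin receptor, was closest to *Loxl3* (0.34), with 13.2 and 14.8, 147 and 146, and 111 and 108 ppm. *Lrrc59*, an ER membrane protein, was closest to *Serpinh1* (0.11), and *Txndc4*, an ER thioredoxin-family protein, to *P4ha1* (0.09). *Plod2* was nearest to *Ap1s2* (0.31) and *Fam3c* (0.32), *Loxl4* to *Maml3* (0.46) and *Map3k1* (0.52), *Loxl1* to *Tagln2* (0.31), *Lox* to *Angptl2* (0.39) and *P4ha2* to *Mipol1* (0.11). For *Loxl2* the nearest gene of this pool was *Csf1r* at 0.67, a larger distance than those above. *Loxl2* and *Lox* themselves lay below the level asked of the pool, so genes as low as these were not compared. With at most 4.9 reads' worth of *Loxl2* in the E and RE libraries, its distance also depends on counting error and the added 0.1 ppm.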

How the data were processed

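RNA from 2 biological replicates each of E, M and RE cells was sequenced on an Illumina Genome Analyzer. For mapping, the authors used Bowtie and TopHat2 on uniquely placed reads, and they deposited whole numbers for 17428 genes in 1 table. The deposited values were read as unnormalized coverage (a signal counted in bases per gene), since between 44.8% and 48.4% of the values from 1 to 400 in each library are multiples of 50. The step that summed reads, its annotation and its strand setting are not given in the sources used here. Columns were taken to libraries by their names.

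Values were scaled to ppm with TMM factors without weights (0.871 to 1.12), computed in R 4.3.3. The 13893 genes that reached 500 bases in 2 or more libraries entered limma 3.58.1 on log2(ppm + 0.1), all libraries in 1 fit, group only, with a trend on mean expression and Benjamini-Hochberg adjustment over all genes tested. Thresholds are those of the study's methods, but its count test does not apply to coverage. Coverage of 3 reads' worth (150 bases) or less in both libraries of a state was treated as at the floor, per library, for counting error only. The fit was tested on simulated data. Exon lengths came from GENCODE M21 and promoters from RefSeq (GRCm38.p6), newer than the build of the table and matched by symbol, and no coordinates of the table were used.

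The 10 genes and the lists around them were chosen with earlier results of these data known. Named genes are the 10 members, genes of the lists, and the nearest profiles. *Htra2* was added after the annotation was searched. The alternatives were other scalings, filters, pseudocounts, thresholds, weights and samples in the fit, the replicate number as a block, each library left out and, chosen after the data were seen, another gene length.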

Additional observations from a re-analysis of the deposited data

How the results depend on the processing

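With 2 libraries per state, counts of calls moved with single libraries. Without 1 library at a time, 3 to 7 of the 10 genes were called in E vs. M (6 with all libraries), 0 to 5 in M vs. RE (5) and 1 to 2 in E vs. RE (1), and among all genes 945 to 3362, 683 to 2337 and 44 to 2348 were called. Over all genes, the lowest counts came from fits without an M or RE library and the highest from fits without the second E library, and the cause was not tested. In M vs. RE, 3 of the 10 genes were called with no filter on low values. In E vs. RE, 2 were called with no filter, with a pseudocount of 0.025, with an adjusted p below 0.05 or with the replicate block, the second being *Lox*, and 3 at a fold change of 1.5. A fit of only the 2 groups compared called 1798 genes in E vs. M in place of 2358 and 525 in E vs. RE in place of 1302. In M vs. RE it called more, 2327 in place of 1789, and the cause was not tested. With library totals, 30.5% of the called genes were higher in E vs. M in place of 50.6%, and 73.8% in place of 62.8% in M vs. RE. Directions turned only in E vs. RE and only among genes not called there: *Loxl4* ran from −0.53 (without the first E library) to 0.75 and was −0.05 without the first RE library, *P4ha1* ran from −0.45 to 0.15 (without the first E library), and *Serpinh1* from −0.31 to 0.21 (without the second E library), with 0.02 without the first RE library. Same-numbered libraries deviated together at correlations of 0.27 (E and M), 0.058 (E and RE) and 0.12 (M and RE), so the numbers were not taken as pairs. With the replicate block 2431, 1830 and 1284 genes were called in E vs. M, M vs. RE and E vs. RE, and among the 10 genes the block changed only the call of *Lox* in E vs. RE (limma adjusted p = 0.00989). *Lox* and *Loxl2* could not be tested with the filter in every library. With the longest transcript as length, the *Loxl2* share in M cells was 0.852% in place of 0.839%.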

Other observations

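Proteins that bind lysyl oxidases or steer fibril assembly did not share 1 pattern. Of 12 such genes, 11 were tested, and 6 were called higher and 3 lower in the M cells (8.58% and 8.39% of all genes tested). *Sparc*, a collagen-binding matricellular protein, was at 227 and 238 ppm in the E, 1102 and 1051 in the M and 538 and 534 in the RE libraries, and *Postn*, periostin, at 123 and 109.6, 2154 and 2363, and 1518 and 945 ppm. *Fmod*, fibromodulin, was at least 72.6-fold higher in M cells than in E cells, neither library of which had any coverage. Against these, *Dcn* (decorin), *Bgn* (biglycan) and *Fbln5* (fibulin 5) had their highest values in the RE cells, where 6 of the 11 genes were called higher and 1, *Tnxb*, lower than in the E cells (6.20% and 3.17% of all genes). *Bgn* was at 4.67 and 4.81 ppm in the E, 7.445 and 6.93 in the M and 24.7 and 21.8 in the RE libraries (log2 fold change 2.27 in E vs. RE, limma adjusted p = 0.000334). *Dcn* was at the floor in the M cells and at least 38.2-fold higher in the RE cells. With a state at the floor, *Fmod* and *Dcn* had to differ between states to pass the filter on low coverage. *Tgm2*, a transglutaminase that crosslinks matrix proteins by another chemistry than the lysyl oxidases, was lowest in the M cells, as was *Loxl4*. *Tgm2* had 460.3 and 486 ppm in the E, 196 and 188 in the M and 708 and 658 in the RE libraries (−1.30 in E vs. M, limma adjusted p = 0.000269, and 1.83 in M vs. RE, limma adjusted p = 6.44e-05). Unlike for *Loxl4*, both RE libraries lay above both E libraries, but this difference was not called (0.53, limma adjusted p = 0.0203).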
